A study of Mus musculus with 6 samples.

Results

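The B7 family and the dendritic cell (DC) maturation genes Cd83 and Fscn1 were followed in CD4+ DC of the mouse spleen with and without the transcription factor Runx3. The set held 9 genes, taken as every probe set whose annotation gave 1 of these symbols alone: the 7 ligand genes Cd80, Cd86, Icosl, Cd274, Pdcd1lg2, Cd276 and Vsir, and the 2 maturation markers Cd83 and Fscn1. They came from 10 of the 35399 probe sets and were 9 of the 19938 genes named on the array, and all 9 could be tested. RNA was read on 6 Affymetrix arrays, 1 per male mouse aged 6 weeks, with 3 Runx3 +/+ (WT) and 3 Runx3-/- animals drawn as WT and mutant siblings from 3 litters, and the replicate number names the litter. The Runx3-/- mice carried the loss in the germline, so all of their cells lacked the gene, and an effect arising in the DC and one reaching them from other cells cannot be told apart. Cells were sorted as CD11c+ MHCII+ and split by CD4 and CD8, and the labels mention an Esam population without giving its gate. Values are log2 signals from the robust multichip average (RMA), and a signal of 6.5 is the background level named in the study's methods.

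B7 ligands are membrane proteins of the immunoglobulin superfamily through which DC set the outcome of antigen recognition by T cells. CD80 and CD86 engage the activating receptor CD28 and the inhibitory receptor CTLA-4, ICOS ligand engages ICOS, and PD-L1 (Cd274) and PD-L2 (Pdcd1lg2) engage the inhibitory receptor PD-1. When a DC matures after sensing microbes or inflammatory signals it displays more CD80, CD86 and CD83 and gains fascin (Fscn1), an actin-bundling protein of the dendrites.

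Promoter windows of 300 bases, 250 before and 50 after the annotated start, were available in RefSeq (GRCm38.p6) for 7 of the 9 genes, Cd83 and Cd86 not being among them. The windows of Cd274 and Pdcd1lg2 are shown because these genes lie next to each other on chromosome 19 and had separate WT and Runx3-/- values, and that of Fscn1 because it had the largest change of the set. Capitals mark matches, on either strand, to the RUNX core TGTGGT, the GC box GGGCGG or the TATA box TATAAA, and in Pdcd1lg2 the RUNX letters are on the strand not shown.
Cd274, chr19:29367188-29367487, + strand: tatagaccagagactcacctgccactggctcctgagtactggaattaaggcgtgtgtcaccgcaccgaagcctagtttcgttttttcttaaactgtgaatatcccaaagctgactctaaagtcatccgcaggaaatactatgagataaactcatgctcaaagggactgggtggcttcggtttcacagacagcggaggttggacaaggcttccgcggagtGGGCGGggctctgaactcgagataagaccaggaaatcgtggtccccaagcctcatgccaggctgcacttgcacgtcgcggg
Pdcd1lg2, chr19:29410669-29410968, + strand: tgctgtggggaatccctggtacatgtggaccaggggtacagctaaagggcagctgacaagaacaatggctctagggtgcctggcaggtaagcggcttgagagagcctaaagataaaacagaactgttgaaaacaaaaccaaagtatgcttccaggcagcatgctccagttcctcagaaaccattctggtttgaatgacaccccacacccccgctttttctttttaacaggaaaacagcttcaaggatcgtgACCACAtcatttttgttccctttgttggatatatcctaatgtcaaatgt
Fscn1, chr5:142960105-142960404, + strand: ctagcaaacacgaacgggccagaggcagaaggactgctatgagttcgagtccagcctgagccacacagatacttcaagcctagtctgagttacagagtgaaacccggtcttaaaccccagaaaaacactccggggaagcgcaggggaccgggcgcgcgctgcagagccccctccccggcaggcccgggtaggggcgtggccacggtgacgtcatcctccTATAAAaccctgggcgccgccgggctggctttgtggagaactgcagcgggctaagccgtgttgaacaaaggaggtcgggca
The RUNX core was found in 1 of the 7 windows, that of Pdcd1lg2, at bases 252 to 257 counted from 1 at the 5′ end, as against 16.8% of all 32851 windows of this length. A GC box stood in 4 of the 7 (Cd274, Cd276, Icosl and Vsir) and in 35.7% of all windows, and TATAAA in 2 of the 7 (Cd80 and Fscn1) and in 13.6% of all. None of the 7 held the NF-kappa-B letters (GGGA, then any 1 base, then TTTCC) found in 0.411% of all windows, the interferon response letters (GAAA repeated after any 2 bases) found in 3.44% or the STAT letters TTCNNNGAA found in 8.3%. The windows ranged in GC content from 46% (Pdcd1lg2, with 3 CG pairs) through 52.7% (Cd274, with 15) and 61.7% (Fscn1, with 21) to 78.3% (Cd276, with 39), as against a median of 52.7% and 7 CG pairs over all windows. The neighbours Cd274 and Pdcd1lg2 thus shared none of the searched motifs. These are matches of letters in short windows and say nothing of binding.

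Runx3 itself (probe set 10509030) checked the labels. Its log2 signal was 11.24, 11.22 and 11.11 in WT and 9.16, 9.30 and 9.16 in Runx3-/- DC of litters 1, 2 and 3, a log2 change of -1.98 (SE 0.08, limma, adjusted p = 0.0027). The adjusted p was 0.061 with the litter blocked and 0.054 without WT 1, where the size of the change was nearly the same. The Runx3-/- signal stayed above the background of 6.5.

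None of the 9 genes passed an adjusted p of 0.05 in the comparison of Runx3-/- with WT DC (limma over 19149 probe sets, of which 1.56% passed, 0.856% higher and 0.7% lower). All 9 lay above background in all 6 arrays, as did 88.4% of the tested probe sets, with signals between 8.85 (Cd276) and 11.8 (Cd80). In 7 of the 9 the Runx3-/- mean was the higher, in 2 the lower (Cd80 and Cd83), and the median log2 change was 0.16 as against -0.04 over all tested probe sets, 40.7% of which were higher in the mutant. At an unadjusted p of at most 0.05, 3 of the 10 probe sets were higher (Cd274, Pdcd1lg2 and Fscn1) and 1 lower (the dimmer of the Cd80 pair), beside 5.59% and 10.3% of the tested probe sets. Counted by the brightest probe set of each gene, as in all counts of genes here, this was 3 of 9 higher and 0 lower. Over the 9 genes the methods' analysis of variance gave 2 (Cd274 and Fscn1). In bulk samples such as these, fewer cells of a kind and less RNA per cell cannot be told apart.

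Markers of other cells were read beside these values. The 6 CD4+ DC markers and 5 classical DC markers lay above background in all arrays, and 1 of them, Irf4, fell, as did 0.7% of all tested probe sets. In the CD4+ DC list 4 of 6 had the higher mean in the mutant. Itgam (log2 change 0.47, limma adjusted p = 0.17) and Sirpa (0.16, adjusted p = 0.32) had all mutant values above all WT values. Irf4 and Clec4a4 (-0.27, adjusted p = 0.30) had all of them below. This list averaged 11.30 to 11.40 in WT and 11.31 to 11.41 in Runx3-/- arrays. The mean log2 signal of the classical DC list was 12.36 to 12.42 in WT arrays and lower, at 12.14 to 12.23, in mutant arrays, with 0 of 5 called. All measured markers of T cells (5), NK cells (3), neutrophils (4) and erythroid cells or platelets (2) lay below background in all arrays. Of 7 red pulp macrophage markers 6 were tested and 4 passed as higher (Spic, C1qa, C1qb and C1qc), beside 0.856% of all tested probe sets. The mean log2 signal of the list was 8.84 to 9.26 in WT and 9.99 to 10.3 in Runx3-/- arrays, with Cd163 below background. Vcam1 had a log2 change of 1.39 (adjusted p = 0.067). Adgre1, which encodes a surface marker of these macrophages, was at 12.45 ± 0.16 in WT and 12.46 ± 0.11 in mutant arrays (SD, n = 3 each, adjusted p = 0.97). Its WT signal was at the level of the classical DC list. The other tested markers of the macrophage list had WT means from 8.38 (C1qa) to 10.06 (C1qb). Which cells gave the Adgre1 signal was not tested. The mean over 3 monocyte markers was 8.92 to 9.22 in WT and 9.70 to 10.2 in Runx3-/- arrays. That over 4 B cell markers was 7.20 to 7.78 and 7.71 to 7.84, with Pax5 below background. Cd79b had all mutant values above all WT values (log2 change 0.58, limma adjusted p = 0.077). Ms4a1 was at 0.58 with overlapping groups, and Cd79a, above background in 1 array, was at -0.01. Plasmacytoid DC markers averaged 8.02 to 8.20 in WT and 8.27 to 9.96 in Runx3-/- arrays, and Siglech reached 10.2 in Runx3-/- 3 as against 7.40 to 8.18 in the other arrays. In CD8+ DC markers the means were 7.30 to 7.41 and 7.44 to 7.96, but the members differed in sign and 0 were called. Xcr1 (log2 change 0.68), Clec9a (0.61) and Cd8a (0.39, above background in 1 array) had the higher mean in the mutant. Batf3 had the lower (-0.47), with all mutant values under all WT values. The part of these markers in the changes of Fscn1, Cd274, Pdcd1lg2, Pvr, Treml2 and Marcksl1 was not tested. Without Runx3-/- 3 the log2 changes of Fscn1, Cd274 and Pdcd1lg2 were 0.65, 0.22 and 0.45. Those of Pvr, Treml2 and Marcksl1 were then 1.43, 1.07 and 1.11, with adjusted p-values of 0.077, 0.082 and 0.11 (limma). Leaving out 1 array does not address markers that were higher in every mutant array.

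**Figure D1:**
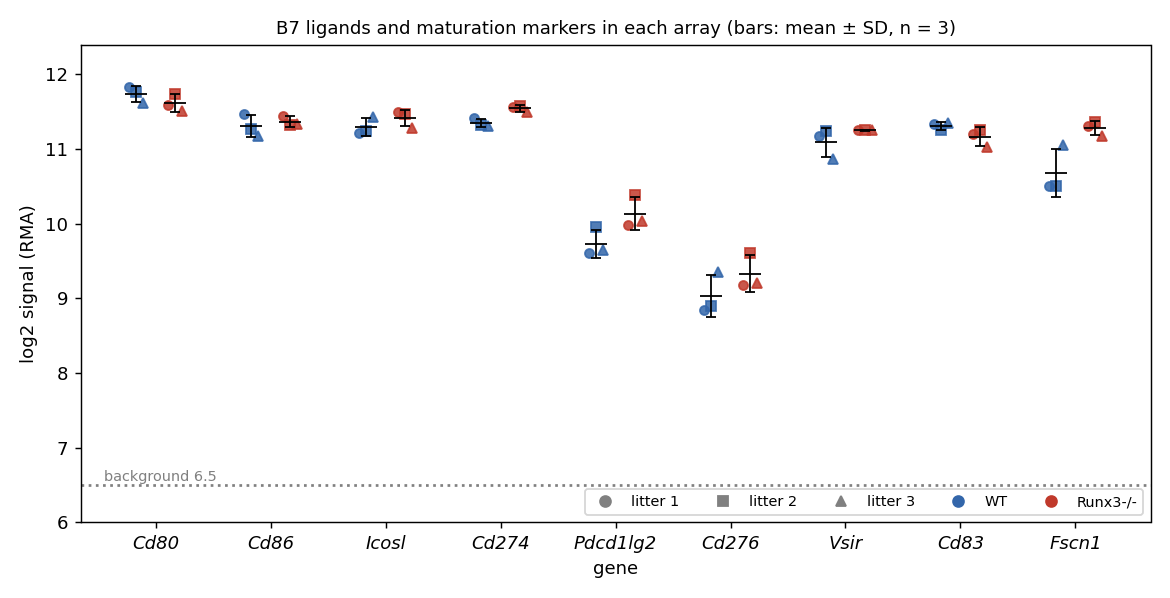
Log2 signal (vertical axis) of the 9 genes (horizontal axis) in single arrays, coloured by genotype (blue WT, red Runx3-/-), with marker shape giving the litter, black bars the mean and SD (n = 3 each) and the dotted line the background of 6.5. The genotypes lie close together for Cd80, Cd86, Icosl and Cd83, and Fscn1 shows the widest gap between means (10.69 and 11.29).

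Of the ligands of CD28 and CTLA-4, Cd86 had overlapping groups, and Cd80 had them overlapping on the brighter of its 2 probe sets and apart on the other, with neither gene past the adjusted test. Cd86 (probe set 10439312) read 11.47, 11.27 and 11.18 in WT and 11.45, 11.33 and 11.33 in Runx3-/- DC of litters 1, 2 and 3. The Runx3-/- values all lay inside the WT range. The log2 change was 0.06, with a 95% interval from -0.17 to 0.30, which is 0.886-fold to 1.23-fold (adjusted p = 0.81). Without WT 3 the sign turned, at -0.00355. Cd80 (probe set 10435704) read 11.83, 11.77 and 11.61 in WT and 11.59, 11.75 and 11.51 in Runx3-/- DC. The mutant was the lower animal in each of the 3 litters, with log2 differences of -0.24, -0.03 and -0.11, but the groups overlapped and the log2 change was -0.13 (interval -0.36 to 0.11, adjusted p = 0.59).

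A second Cd80 probe set (10435712), annotated to cDNA records and not to the RefSeq transcript, read 9.78, 9.74 and 9.80 in WT and 9.40, 9.63 and 9.53 in Runx3-/- DC. Here all Runx3-/- values lay below all WT values, with a log2 change of -0.26 (SE 0.08, unadjusted p = 0.019, adjusted p = 0.21). Both Cd80 probe sets thus had the same sign and neither passed. Icosl (probe set 10364361), the ligand that sustains follicular helper T cells, read 11.21, 11.25 and 11.43 in WT and 11.49, 11.47 and 11.29 in Runx3-/- DC. The mutant was higher in litters 1 and 2 and lower in litter 3, and the log2 change of 0.12 (interval -0.12 to 0.35) did not pass (adjusted p = 0.61).

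Both PD-1 ligands had mutant values wholly above the WT values, by small amounts that did not pass the adjusted test. Cd274 (probe set 10462390) read 11.42, 11.33 and 11.31 in WT and 11.57, 11.58 and 11.50 in Runx3-/- DC. Each mutant value exceeded each WT value, and the littermate differences were 0.15, 0.25 and 0.18. This amounted to 1.14-fold, a log2 change of 0.19 with SE 0.07 (unadjusted p = 0.028, adjusted p = 0.25), and the unadjusted p by the methods' analysis of variance was 0.0098. Its neighbour Pdcd1lg2 (probe set 10462398) read 9.60, 9.95 and 9.64 in WT and 9.98, 10.39 and 10.04 in Runx3-/- DC. The groups were again separate, narrowly so since WT 2 came close to the lowest mutant, while the differences between littermates were nearly equal at 0.37, 0.44 and 0.40. The level was 1.32-fold that of WT, a log2 change of 0.40 (SE 0.15, interval 0.05 to 0.76, unadjusted p = 0.032, adjusted p = 0.26). Jak2, a kinase of the interferon gamma pathway that induces PD-L1, had a mean of 12.56 ± 0.12 in WT and of 12.51 ± 0.06 in mutant DC (SD, n = 3 each).

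Among the remaining ligands, Cd276 (probe set 10594092), which encodes B7-H3, read 8.85, 8.90 and 9.35 in WT and 9.18, 9.61 and 9.21 in Runx3-/- DC. WT 3 lay among the mutant values, and the littermate differences were 0.33, 0.71 and -0.14. Its log2 change of 0.30 (SE 0.18) had the widest interval of the ligands, from -0.14 to 0.74 (adjusted p = 0.48). Vsir (probe set 10363445), which encodes the inhibitory ligand VISTA, read 11.17, 11.24 and 10.87 in WT and 11.26, 11.25 and 11.25 in Runx3-/- DC. The 3 mutants were almost identical and WT 2 lay just under them, so that the groups did not overlap although WT 3 alone gave most of the difference. The log2 change was 0.16 (SE 0.11, adjusted p = 0.53), and 0.05 without WT 3.

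**Figure D2:**
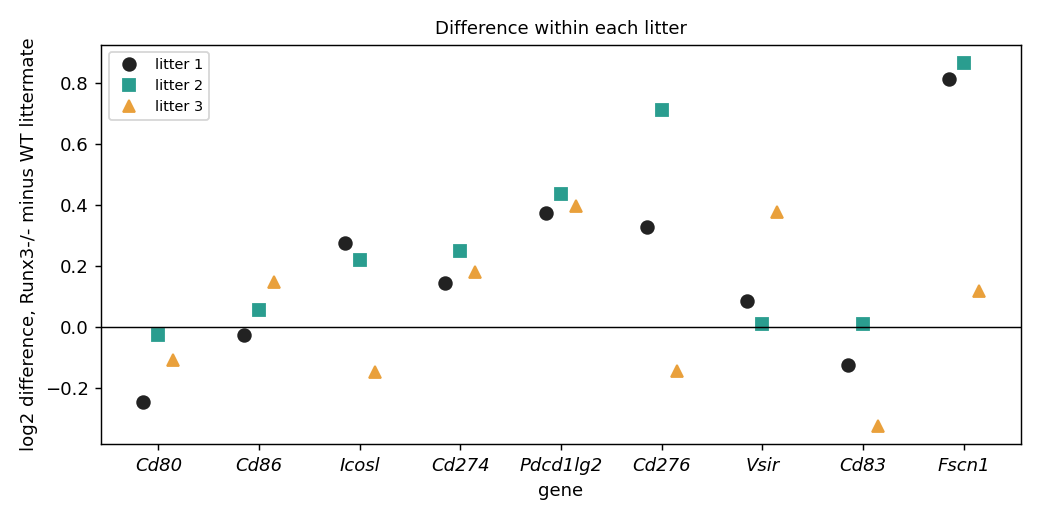
Log2 difference of the Runx3-/- mouse from its WT littermate (vertical axis) for the 9 genes (horizontal axis), 1 point per litter. The 3 litters agree closely for Pdcd1lg2 (0.37 to 0.44) and Cd274 (0.15 to 0.25), whereas for Fscn1 litter 3 (0.12) lies far under litters 1 and 2.

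Of the maturation markers Cd83 had the lower mean in the mutant and Fscn1 the higher, and neither passed. Cd83 (probe set 10404840), a membrane protein that counters the ubiquitin ligase MARCH1 and so keeps CD86 and MHC class II on the surface, read 11.33, 11.25 and 11.35 in WT and 11.21, 11.26 and 11.02 in Runx3-/- DC. The mutant of litter 2 lay inside the WT range and the others under it, and the log2 change was -0.15 (interval -0.35 to 0.06, adjusted p = 0.48). Fscn1 (probe set 10527158) read 10.50, 10.50 and 11.06 in WT and 11.31, 11.37 and 11.18 in Runx3-/- DC. All mutants exceeded all WT mice, but WT 3 was close to the mutant of its own litter, and the littermate differences were 0.81, 0.87 and 0.12. Fscn1 was 1.52-fold higher, with a log2 change of 0.60 (SE 0.17, interval 0.20 to 1.00, unadjusted p = 0.011, adjusted p = 0.16). It was the only 1 of the 9 that met both thresholds set in the methods (1.5-fold, and an unadjusted p no higher than 0.05), as did 3.95% of tested probe sets, 2.01% higher and 1.94% lower, and its unadjusted p by the methods' analysis of variance was 0.037. Without WT 3 its log2 change was 0.79 (adjusted p = 0.055).

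Intervals of the change were narrow for most of the set. For 6 of the 9 (Cd80, Cd86, Icosl, Cd274, Vsir and Cd83) the 95% interval of limma, taken gene by gene, lay within a 1.5-fold change in either direction, and for 8 it lay within a 2-fold change. The exception was Fscn1, whose upper bound was 2.01-fold. In 4 of the 9 (Cd274, Pdcd1lg2, Vsir and Fscn1) the Runx3-/- values lay wholly above the WT values, as in 7.48% of tested probe sets, and in 0 of 9 wholly below. With the second Cd80 probe set, 1 of the 10 probe sets lay wholly below, as in 14.9% of those tested, and 5 of 10 were separate in either direction, as in 22.4%. An exact permutation test of 3 against 3 arrays cannot give a two-sided p under 0.1 for any of them.

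Littermates were also compared pair by pair. The mutant was the higher animal in all 3 litters for 4 genes (Cd274, Pdcd1lg2, Vsir and Fscn1) and the lower in all 3 for Cd80, and the sign varied among litters for Cd86, Icosl, Cd276 and Cd83. Litter 3 differed in sign from litters 1 and 2 for Icosl and Cd276. The spread within a genotype ran from an SD of 0.00476 (Vsir in Runx3-/- DC) to 0.323 (Fscn1 in WT DC), and for Fscn1 it was smaller in the mutants, at 0.10. Vsir likewise varied more in WT (SD 0.19), whereas Cd276 had nearly equal spreads of 0.28 in WT and 0.24 in Runx3-/- DC. With the litter as a replicate block none of the 9 passed, and the adjusted p was 0.22 for Fscn1, 0.26 for Cd274 and 0.11 for Pdcd1lg2.

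**Figure D3:**
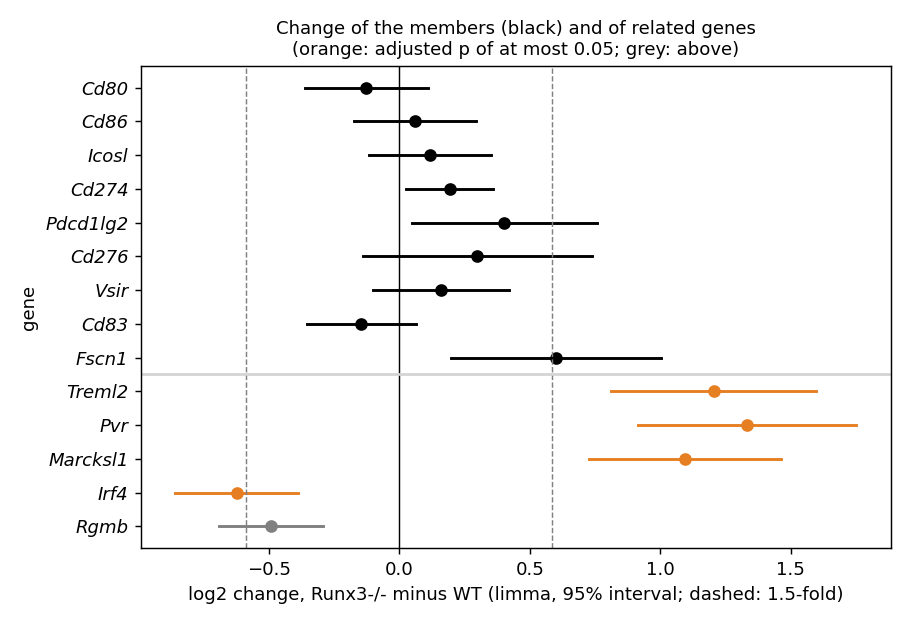
Log2 change of Runx3-/- against WT DC (horizontal axis) with the 95% interval of limma for the 9 genes (black) and 5 genes of the surrounding lists, with 1.5-fold changes as dashed lines. The intervals of 6 of the 9 stay between the dashed lines, while those of Treml2, Pvr and Marcksl1 (orange, adjusted p of at most 0.05) lie wholly beyond them. The interval of Irf4, also orange, runs from -0.86 to -0.39 and crosses the lower dashed line.

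Genes around the B7 ligands were read from the same comparison. Of 5 receptors of B7 ligands, Cd28, Ctla4 and Pdcd1 (PD-1) lay below background in all 6 arrays, and of the 2 tested 0 passed. Icos averaged 9.84 ± 0.21 in WT as against 9.67 ± 0.16 in mutant DC (SD, n = 3 each), in arrays where all 5 T cell markers were below background. Rgmb, which encodes a co-receptor of bone morphogenetic proteins that also binds PD-L2, averaged 8.52 ± 0.12 in WT and 8.03 ± 0.04 in mutant DC (SD, n = 3 each), with all mutant values under all WT values. Its log2 change was -0.49 (SE 0.08) and its adjusted p was 0.052, with a range of 0.046 to 0.19 over 14 alternatives, and it passed under 2 stricter filters on low signal.

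In a list of 8 B7-like, butyrophilin and related genes, 6 lay below background throughout, among them Vtcn1 (B7-H4). Of the 2 tested 1 rose and 0 fell, beside 0.856% and 0.7% of all tested probe sets. The gene that rose was Treml2 (probe set 10445767), a receptor of the TREM family. It read 6.28, 6.37 and 6.51 in WT and 7.67, 7.26 and 7.85 in Runx3-/- DC. All mutants lay above background and 1 of 3 WT arrays just above it, and Treml2 rose with a fitted log2 change of 1.20 (SE 0.16, adjusted p = 0.030). With the WT mean under background, the size of this change is uncertain. Btla, an inhibitory receptor of lymphocytes and DC, had a log2 change of -0.02 (interval -0.20 to 0.16). Its sign turned with median centring (0.02) and in 3 of the fits that left out an array.

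Other ligands through which DC address T cells gave 1 gene that rose and 0 that fell among 12 tested of 16. Over all tested probe sets 0.856% rose and 0.7% fell. The median log2 change of the list was 0.16. Pvr (probe set 10560709), which encodes CD155, the ligand of DNAM-1 and TIGIT, read 7.65, 7.17 and 7.08 in WT and 8.68, 8.77 and 8.44 in Runx3-/- DC. Every mutant exceeded every WT mouse by a wide margin, and the rise was 2.52-fold (log2 change 1.33, SE 0.17, adjusted p = 0.029). Of the rest, Ceacam1 had a log2 change of 0.33 (adjusted p = 0.18) and Lgals9, which encodes galectin-9, of 0.40 (adjusted p = 0.29). Tnfsf9, the ligand of 4-1BB, lay under background in every WT mouse and over it in every mutant. The ratio of means was 1.22-fold with WT values set at 6.5. It did not pass (limma, interval 1.11-fold to 1.66-fold on the values as deposited, adjusted p = 0.15). Cd70, Tnfsf4, Tnfsf18 and Nectin2 lay below background in all arrays.

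A list of 20 genes of the maturation programme was measured for 17 and tested for 15. Of these 1 rose and 0 fell, beside 0.856% and 0.7% of all tested probe sets. The mutant mean was the higher in 13 of 15, the median log2 change was 0.30, and in 8 of 15 the Runx3-/- values lay wholly above the WT values. Over all tested probe sets 40.7% had the higher mean in the mutant and 7.48% lay wholly above. Marcksl1 (probe set 10508465), a protein kinase C substrate that binds actin, read 9.72, 9.51 and 10.09 in WT and 10.95, 10.81 and 10.83 in Runx3-/- DC. The groups lay well apart, with a 2.13-fold rise (log2 change 1.09, SE 0.15, adjusted p = 0.032). Ccl22, a chemokine of mature DC, had a log2 change of 0.80 (SE 0.22, adjusted p = 0.16), Il12b, the p40 subunit shared by IL-12 and IL-23, of 0.63 (SE 0.21, adjusted p = 0.23, with 2 of 3 WT arrays above background) and Il15 of 0.34 (SE 0.11, adjusted p = 0.21). Lamp3 and Ccl17, which mark mature DC, stayed below background in all 6 arrays. Neither Ccr7, the receptor that guides mature DC to T cell zones (log2 change 0.29, interval -0.10 to 0.69), nor any gene of the list other than Marcksl1 passed.

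Regulators of the B7 ligands and of CD83 gave 0 genes that rose and 1 that fell among 21 tested of 24. Over all tested probe sets 0.856% rose and 0.7% fell. The median log2 change of the list was -0.03. Irf4, a transcription factor of CD4+ DC, read 10.22, 10.24 and 10.26 in WT and 9.46, 9.60 and 9.79 in Runx3-/- DC. It was 1.54-fold lower (log2 change -0.62, SE 0.10, adjusted p = 0.043). Marchf1, the ubiquitin ligase of CD86 and MHC class II, averaged 11.06 ± 0.06 in WT and 10.96 ± 0.05 in mutant DC (SD, n = 3 each, adjusted p = 0.53). Ciita, the coactivator of MHC class II genes, had a log2 change of -0.20 (adjusted p = 0.23), and Stat3 of 0.21 (adjusted p = 0.30). Cmtm4, which stabilises PD-L1 protein, lay below background in all WT arrays and above it in 1 mutant array, and the groups overlapped. Its fitted log2 change was 0.20 (interval -0.05 to 0.46, adjusted p = 0.42), of uncertain size at this signal. Its other probe set (10581069) lay below background in all arrays. Il10 lay below background in all 6 arrays.

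Fascin's relatives Fscn2 and Fscn3 lay below background in all arrays, so Fscn1 was the fascin gene these arrays detected. In the list of fascins and actin-bundling proteins 0 of 9 tested genes passed (limma), and the median log2 change was -0.09. At an unadjusted p of at most 0.05, 1 was higher and 1 lower, beside 5.59% and 10.3% of all tested probe sets. The alpha-actinin gene Actn1 had a log2 change of -0.37 (SE 0.07, adjusted p = 0.063), with all mutant values under all WT values, and it passed with trended robust eBayes (adjusted p = 0.040). Daam1, a formin-like actin nucleator, was at 0.32 (adjusted p = 0.31), Marcks at -0.13 (adjusted p = 0.49) and the plastin Pls3 at -0.24 (adjusted p = 0.53). Over the 6 arrays the genes whose signal was most like that of Fscn1 were Dkk2 (Pearson r = 0.993, Spearman rho = 0.943), Gnpnat1 (r = 0.986, rho = 1) and Sipa1l2 (r = 0.981, rho = 0.943), among 9921 genes of which 119 had an r above 0.9. These correlations run over 6 points in 2 genotypes and share the same arrays, and they are a description.

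**Figure D4:**
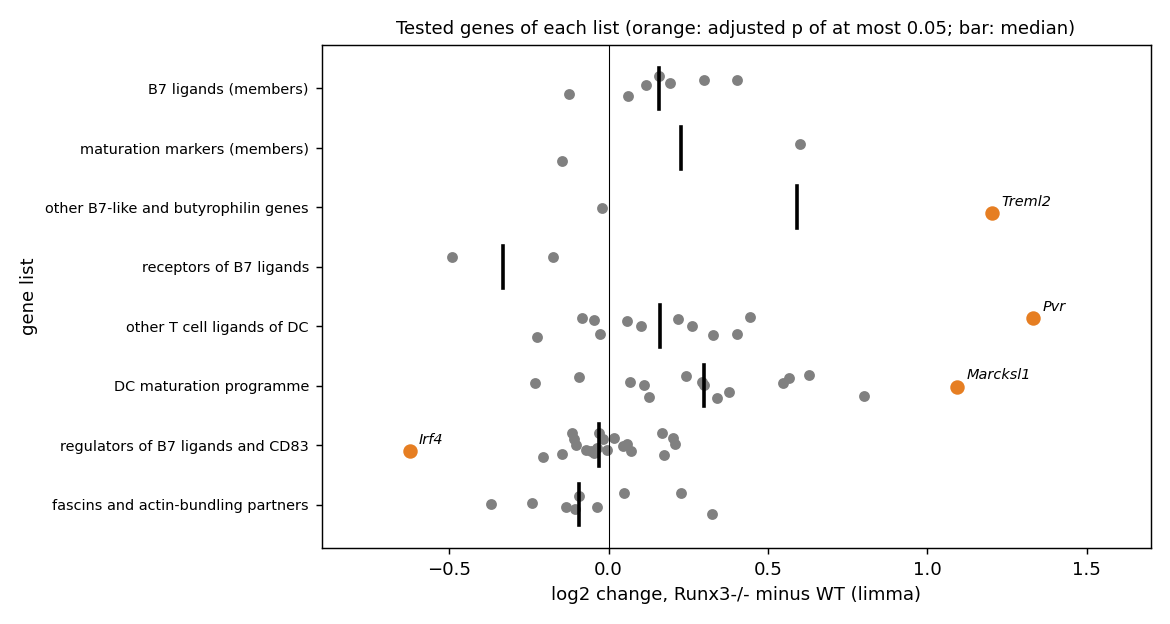
Log2 change of Runx3-/- against WT DC (horizontal axis) for each tested gene of the 2 member lists and the 6 surrounding lists (vertical axis), with the median of each list as a black bar. The 4 genes with an adjusted p of at most 0.05 (orange) are Treml2, Pvr, Marcksl1 and Irf4, and the points of the 9 members are all grey.

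Blocking on the litter as a replicate block gave an adjusted p of 0.081 for Treml2 and Pvr, 0.094 for Marcksl1 and 0.10 for Irf4, so these calls were lost, as were all 298 calls over the table. Without WT 1 it was 0.15, 0.075, 0.16 and 0.18, and 0 to 1 of the 4 calls held when any array was left out. The methods' analysis of variance gave adjusted p-values of 0.14 for each of these genes, and with median centring that of Irf4 was 0.0502.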

How the data were processed

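Probe signals were summarised by the authors with RMA and a GC correction in Partek Genomics Suite, giving deposited log2 values. Since RMA brings probes of all arrays to 1 distribution, a real shift common to most genes cannot be seen. A small offset remained in the deposited values, with a median log2 change of -0.0353 over tested probe sets. It was -0.00569 after quantile normalization and 0.0062 after median centring, with 7 members higher in both. Shares of tested probe sets in either direction include this offset. The submitters' processing notes name mm9, with tool versions not given in the sources used here. The methods name an exon array while the probe set numbers and annotation are those of a gene-level array, so values were taken as gene-level summaries, and whether the background of 6.5 was set on this array type is not given. The platform annotation gave 1 symbol for 21789 of 35399 probe sets, and 0 symbols changed on a check against RefSeq through the Entrez number. Array medians ranged from 6.57 to 6.65. Precision is limited by the number of arrays.

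Probe sets at 6.5 or above in at least 1 array (19149) were tested by limma 3.58.1 under R 4.3.3, using lmFit and eBayes with genotype as the only term (two-sided) on values as deposited, adjusted by Benjamini-Hochberg over all of them. The fit was also run on simulated data with independent noise and no litter effect. That run cannot check how shared litters bear on the calls. Cd80 and other genes on more than 1 probe set were represented by the brightest. Members, lists and tests were chosen with earlier results of these data known. Named genes were the 9 members, Runx3, the called genes and up to 4 of smallest p of each other list, and the 3 genes most like the leading member; Jak2, Marchf1, Ccr7, marker genes and genes below background were named beyond that rule. Fold changes are ratios of geometric means. For a group below 6.5 in all arrays the fold was taken against 6.5, which does not cover the spread among arrays. The replicate number marks the litter per the labels, and deviations of littermates from their group means correlated at 0.16, 0.10 and 0.25. Alternatives were 2 normalizations, 3 filters, the litter block, the methods' analysis of variance, trended robust eBayes and leaving out each array.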

Additional observations from a re-analysis of the deposited data

How the results depend on the processing

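The count of 0 called among the 9 B7 and maturation genes was the same in all 14 alternative fits, and 1 gene (Fscn1) met the methods' thresholds. Over those fits the adjusted p of Fscn1 ranged from 0.055 to 0.44, that of Pdcd1lg2 from 0.11 to 0.59 and that of Cd274 from 0.16 to 0.48. The log2 change ranged from 0.51 to 0.79 for Fscn1, 0.28 to 0.51 for Pdcd1lg2, 0.17 to 0.23 for Cd274, 0.16 to 0.46 for Cd276, 0.05 to 0.23 for Vsir, 0.08 to 0.19 for Icosl, -0.19 to -0.07 for Cd80 and -0.19 to -0.07 for Cd83, and that of Cd86 turned to -0.00355 without WT 3 and was at most 0.1434, without WT 1. Members at an unadjusted p no higher than 0.05 numbered 1 to 3 in these fits, and Fscn1 was among them in each. The litter as a replicate block gave 0 called probe sets (3430 at unadjusted p of at most 0.05) and 0 called genes in the other lists, and changed no call of the 9 genes. By the methods' analysis of variance 6 probe sets and 0 list genes passed, and by the methods' thresholds 757 probe sets did. Leaving out 1 array gave 0 to 205 probe sets (0 without WT 1, 137 without WT 2, 75 without WT 3, and 40, 205 and 1 without Runx3-/- 1, 2 and 3) and 0 to 1 list genes, against 298 and 4. The sign of Btla turned with median centring (0.0208), without WT 3 (0.0098), without Runx3-/- 1 (0.0072) and without Runx3-/- 2 (0.0020), and was -0.0683 without Runx3-/- 3. The cause of these differences was not tested. With 3 arrays per genotype, changes within the intervals given were not resolved.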
